A study of Mus musculus with 16 samples.

Results

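Among mice that received no ethanol, the libraries labelled as terminal ileum did not hold the same level of Gata4, a transcription factor of the proximal small intestine, and a large set of genes moved with it. The 8 pair-fed (PF) libraries of the 16 in the series are described here: 4 from wild-type mice (WT PF) and 4 from transgenic mice (fat-1 PF), with 1 library per mouse. They were chosen by diet, and they were ordered by the measured value of Gata4 itself, so the level of this gene is a description and carries no test. All were male C57BL/6 littermates that entered the study at 8 to 10 weeks of age and drank for several weeks a Lieber-DeCarli liquid diet in which maltose dextrin replaced the calories of ethanol. The fat-1 mice were heterozygous (fat-1+/-) for a transgene from C. elegans that encodes an n3 fatty acid desaturase and is expressed in all tissues, so that any effect of the transgene is not limited to the gut. The transgene is not among the mouse genes of the table, so the genotype label was not checked here. RNA came from a short segment of the terminal ileum of each mouse, and its distance from the caecum is not given mouse by mouse in the sources used here. In the 8 ethanol-fed (EtOH) libraries, which entered no fit, Gata4 had between 0 and 13 reads.

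The small intestine is specialised along its length. Proximal enterocytes express GATA4 together with the enzymes and carriers that take up sugar, fat and retinol, and mice that lose GATA4 there gain ileal features such as bile acid uptake. The distal ileum lacks GATA4, reclaims bile acids and vitamin B12, carries many Paneth cells and lies beside a denser microbiota.

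Gata4 (14:63198922-63271692, minus strand, GRCm38) rose 5.93-fold from the lowest to the highest PF library. Levels are given in CPM, the standard rate of a gene's reads over all reads of the library, after trimmed mean of M-values (TMM) scaling. WT PF replicate 4 had 23.7 CPM (246 reads), WT PF replicate 3 had 51.0 CPM and fat-1 PF replicate 3 had 54.4 CPM. Then came fat-1 PF replicate 1 with 68.8 CPM, WT PF replicate 1 with 79.6 CPM and WT PF replicate 2 with 80.3 CPM. The highest levels were those of fat-1 PF replicate 4, 128.5 CPM, and fat-1 PF replicate 2, 140.2 CPM. In this order 3 pairs of neighbours had overlapping 95% counting intervals (exact Poisson), namely WT PF replicate 3 with fat-1 PF replicate 3, WT PF replicates 1 and 2 with each other, and fat-1 PF replicates 4 and 2 with each other. The WT PF libraries thus covered the lower and middle part of the range (58.6 ± 27.0 CPM, SD, n = 4) and the fat-1 PF libraries the middle and upper part (98.0 ± 42.7 CPM, SD, n = 4). The ends of the gradient each held 1 genotype. Below, values in Gata4 order follow this sequence of libraries.

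**Figure D1:**
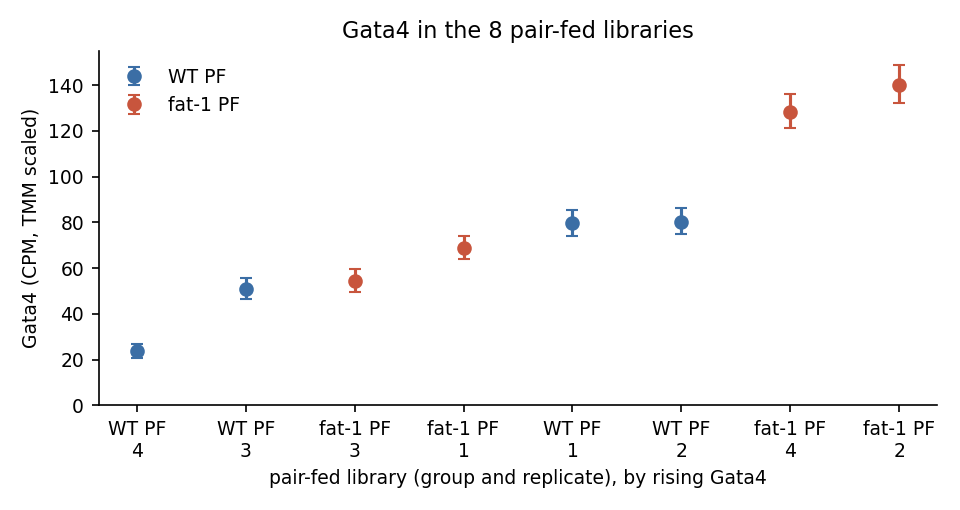
Gata4 in each of the 8 PF libraries in CPM, with 95% exact Poisson intervals that cover counting error only, blue for WT PF and red for fat-1 PF. The level ran from 23.7 CPM in WT PF replicate 4 to 140.2 CPM in fat-1 PF replicate 2.

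Depth did not follow this order: the PF libraries held 8422645 to 10064410 counted reads. The leading principal component of the log2 CPM, with 55.1% of the variance, placed WT PF replicate 4 at -37.5, the 5 libraries of middle Gata4 between -20.4 and -6.15, and fat-1 PF replicates 4 and 2 apart at 47.9 and 55.5. These last 2 libraries also stood apart by 2 marker genes of the tissue they are labelled with. Slc10a2, the bile acid uptake carrier of the ileal brush border, had 433 to 1177 CPM in the other 6 libraries and 3.19 and 6.80 CPM in replicates 4 and 2 of fat-1 PF. Fabp6, the ileal bile acid binding protein, had 774 to 3532 CPM in the 6 and 2.97 and 23.4 CPM in the 2. By these 2 markers both libraries lacked most of the bile acid uptake of the ileum that their label names. Not every gene of the ileal list followed: Tcn2 and Abcc3, described below, showed no such loss along Gata4. The main results are also given without these 2 libraries. In bulk tissue, fewer cells of a type and less RNA per cell cannot be told apart. Position of the segment, genotype and other differences between mice cannot be told apart at the ends of the range either.

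For each of 12898 genes, the slope of its log2 CPM on the log2 CPM of Gata4 was fitted over the 8 libraries with genotype as a further term. A slope of 1 means that a gene changed in proportion to Gata4. With p-values from the quasi-likelihood test of edgeR, adjusted by Benjamini-Hochberg and called at 0.05, 248 genes rose with Gata4, 1.92% of those tested, and 31 fell, 0.24%. At an unadjusted p under 0.05, 1331 genes had a positive slope (10.3%) and 886 a negative one (6.87%). The median slope of all genes was -0.01. Of the 279 genes called, 61 had a slope of 1 or more and 1, Cldn2, had a slope of -1 or less. Every library bore on the count. It was 106 without fat-1 PF replicate 2, 122 without fat-1 PF replicate 3, 127 without WT PF replicate 1, 158 without fat-1 PF replicate 1, 169 without fat-1 PF replicate 4, 184 without WT PF replicate 3 and 200 without WT PF replicate 2. It rose to 642, 232 of them falling, without WT PF replicate 4. Counts of list members under other fits, given with the lists, are to be read against the share of all genes called there with positive and with negative slopes, which was 3.16% and 1.79% without WT PF replicate 4, 3.36% and 2.89% in fat-1 PF mice alone, 1.25% and 0.45% in WT PF mice alone, 0.25% and 0.0379% without fat-1 PF replicates 2 and 4, 4.46% and 1.47% by DESeq2 and 2.14% and 0.264% by limma voom. With a score of 5 ileal bile acid genes in place of Gata4, signed so that it is high where those 5 genes are low, these shares were 3.64% and 3.36%, and without the genotype term 7.75% and 2.94%. They were 0.884% and 0.0923% without WT PF replicate 1, 1.45% and 0.0844% without WT PF replicate 2, 1.08% and 0.131% without fat-1 PF replicate 1, 0.79% and 0.023% without fat-1 PF replicate 2, and 0.888% and 0.0459% without fat-1 PF replicate 3. With fat-1 PF replicates 2 and 4 both left out, 38 genes passed, and all 279 genes kept the sign of their slope. The libraries left were among those that picked the 279 genes, so the kept signs are no independent support.

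The 4 WT PF and the 4 fat-1 PF libraries share no mouse, so the slope in one genotype can be set beside that in the other. In WT PF mice alone, 1832 genes had an unadjusted p under 0.05 (14.2% of those tested), 1065 of them with a positive slope. Of these 1065 genes, 88.2% also had a positive slope in the 4 fat-1 PF libraries, where 50.05% of all genes had one. Of the 767 genes with a negative slope in WT PF mice, 66.6% had a negative slope in fat-1 PF mice. In fat-1 PF mice alone, 2413 genes had an unadjusted p under 0.05 (18.7%). Of the 1328 with a positive slope, 76.6% also had one in WT PF mice, and of the 1085 with a negative slope, 75.02% had one there. Over all genes the share with the same sign was 61.3%. In both directions most of these genes thus had the same sign in mice that had not been used to pick them. The differences between these shares were not tested.

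**Figure D2:**
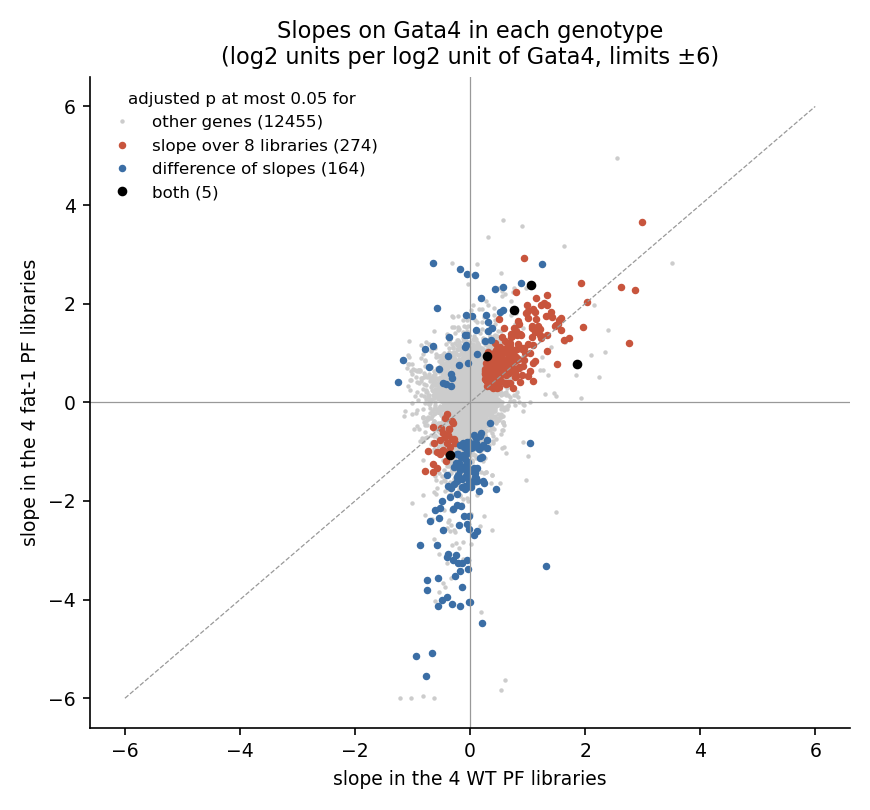
Slope of each of 12898 genes on Gata4 in the 4 WT PF libraries (horizontal) and in the 4 fat-1 PF libraries (vertical), in log2 units per log2 unit of Gata4, with values beyond 6 drawn at the limit. Genes called for the common slope (red) have the same sign in both genotypes, the dashed line marks equal slopes, black points are the 5 genes called for both, and genes called for a difference of slopes (blue) lie mostly below 0 in fat-1 PF and near 0 in WT PF.

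Abundant genes of fat handling rose steeply with Gata4. Fabp1 (6:71199827-71205023), a fatty acid binding protein of proximal enterocytes and liver, had 30.5, 354, 696, 1706, 1414, 618, 6748 and 5765 CPM in Gata4 order. It was lowest in WT PF replicate 4 and highest in the 2 fat-1 PF libraries richest in Gata4, and the middle of the order was uneven, with less in WT PF replicate 2 than in WT PF replicate 1 at nearly the same Gata4. Its slope was 2.62 ± 0.28 (SE), adjusted p = 0.00381. Rbp2, which binds retinol inside enterocytes, had 267, 908, 1273, 2106, 1717, 1283, 7610 and 5155 CPM, with a slope of 1.54 ± 0.16 (adjusted p = 0.00154). Apoa4, an apolipoprotein of chylomicrons, had 1574, 6026, 7883, 9891, 10590, 5321, 35580 and 36240 CPM and a slope of 1.498 ± 0.20 (adjusted p = 0.00492). Of the 22 tested of 23 listed genes of lipid absorption and chylomicron assembly, 6 rose and 0 fell. The others that passed were Apoc3 (slope 1.36), Mttp, which loads lipid onto apolipoprotein B (0.58), and Creb3l3, a transcription factor that drives apolipoprotein genes (0.75). The median slope of the list was 0.36, against -0.01 over all genes. Fabp2, the other fatty acid binding protein of the list, had a slope of 0.11 (adjusted p = 0.857). Plb1, a phospholipase of the brush border, had the lowest slope of the list, -2.54 (adjusted p = 0.619), with 286 to 827 CPM in 6 libraries and 0.55 and 8.06 CPM in replicates 4 and 2 of fat-1 PF. Without these 2 libraries, 2 members of the list still passed, Fabp1 with a slope of 2.91 (adjusted p = 0.0321) and Rbp2 with 1.44 (adjusted p = 0.0167), while Apoa4 kept a slope of 1.31 and lost its call (adjusted p = 0.102).

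All 15 genes of sugar digestion and handling had a slope above 0. Of these, 9 rose and 0 fell, and the median slope was 0.72. Lct, the lactase that splits milk sugar, had 72.4, 602, 590, 729, 1092, 549, 1799 and 2672 CPM in Gata4 order, a slope of 1.77 ± 0.26 (adjusted p = 0.0188). WT PF replicate 4 stood far below the other 7 libraries, and the 5 middle libraries ran from 549 to 1092 CPM, with both ends in the WT PF group. Slc2a2, the basolateral glucose and fructose exporter, had 48.1 CPM at the low end and 864 and 988 CPM at the high end, a slope of 1.54 ± 0.27 (adjusted p = 0.0361). With 1 library left out, the call for Slc2a2 was lost in 5 of 8 fits and that for Lct in 3 of 8, and without fat-1 PF replicates 2 and 4 the adjusted p of Slc2a2 was 0.224. The fructose carriers Slc2a5 and Slc2a7 had slopes of 0.79 and 1.51, and ketohexokinase (Khk), the next enzyme on the path of fructose, had a slope of 0.79. Fbp1, of gluconeogenesis, had a slope of 1.09, trehalase (Treh) 0.85 and the glucose cotransporter Slc5a1 0.60. The sucrase-isomaltase gene Sis (slope 0.40, adjusted p = 0.223) and the maltase-glucoamylase gene Mgam (0.27, adjusted p = 0.211), whose enzymes digest the maltose dextrin of this diet, did not pass. Their levels ran from 3637 to 7872 CPM for Sis and from 2852 to 4480 CPM for Mgam, with WT PF replicate 4 lowest for both. The count of 9 fell to 4 without fat-1 PF replicate 2 and to 5 without fat-1 PF replicate 3, and 1 member passed without fat-1 PF replicates 2 and 4, where the slope of Lct was 1.93 (adjusted p = 0.149) and the median of the list 0.58.

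**Figure D3:**
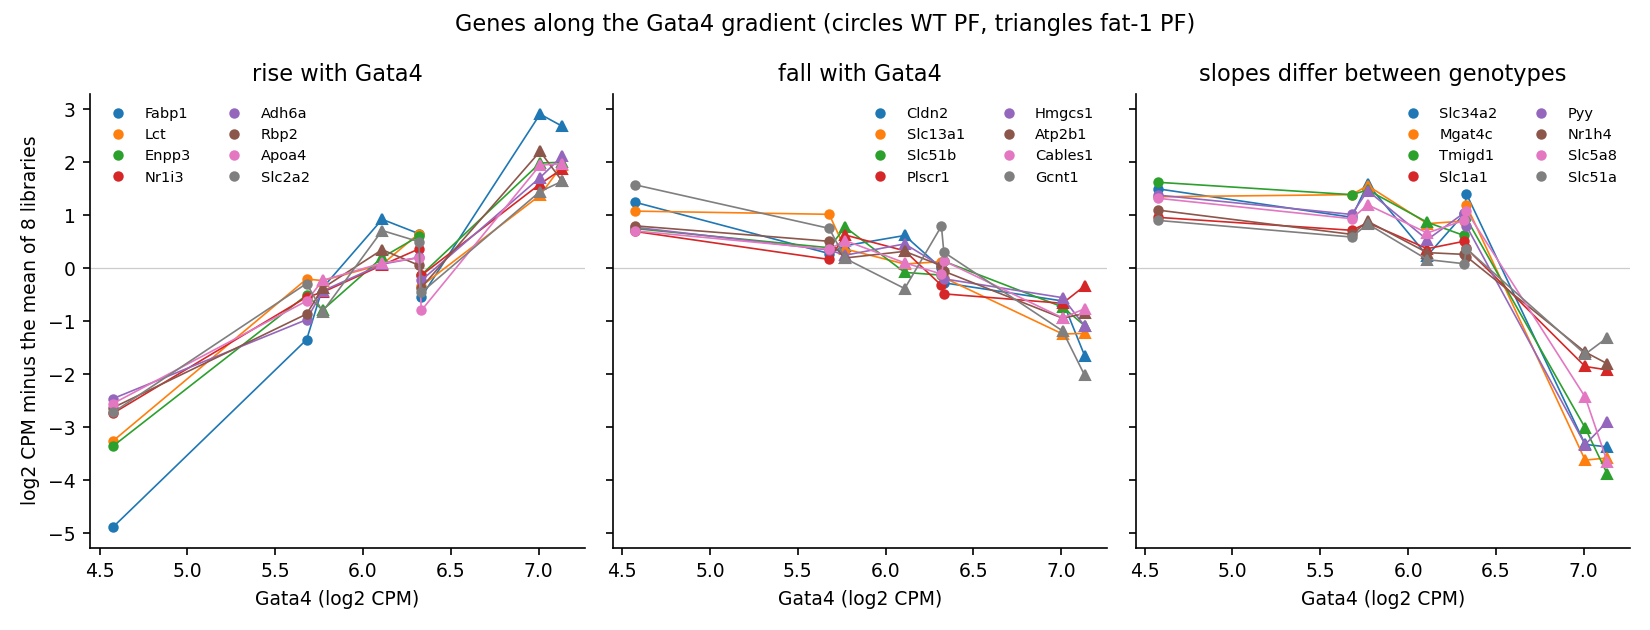
Log2 CPM of 24 genes, each centred on its mean over 8 libraries, against the log2 CPM of Gata4, with circles for WT PF and triangles for fat-1 PF. Genes that rise do so from the lowest to the highest library. The genes on the right are lowest in the 2 fat-1 PF libraries with the most Gata4. Over the other 6 libraries their slopes were also below 0, from -0.22 (Slc5a8) to -0.53 (Nr1h4), none of them called.

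Genes that handle drugs, steroids and retinol were described by a list of 35. Of the 34 tested, 8 rose and 0 fell by edgeR's test, 20 had a positive slope at an unadjusted p under 0.05, and the median slope was 0.56. DESeq2 called 18 with positive slopes and 1 with a negative slope, limma voom 12 with positive slopes, and without WT PF replicate 4 edgeR called 9 with positive slopes and 1 with a negative slope. Nr1i3, the nuclear receptor CAR that switches on drug-metabolising enzymes, had the smallest adjusted p of all genes (0.00035) and one of the most even courses: 6.73, 30.8, 32.8, 46.7, 57.7, 40.9, 135.0 and 164.5 CPM in Gata4 order, a slope of 1.65 ± 0.12. Its slope was 1.58 in WT PF mice alone and 1.70 in fat-1 PF mice alone, and it stayed between 1.59 and 1.74 when any 1 library was left out. Cyp2b10, a cytochrome P450 that CAR is known to induce, had 9.13 CPM at the low end and 225 and 276 CPM at the high end (slope 1.47 ± 0.28, adjusted p = 0.0487), a call lost in 6 of the 8 fits with 1 library left out. The alcohol dehydrogenases Adh6a and Adh4 had slopes of 1.58 ± 0.12 (adjusted p = 0.000385) and 2.41 ± 0.22 (adjusted p = 0.00128). Adh4 was rare, with 2, 12, 15, 52, 49, 36, 118 and 203 reads in Gata4 order, so it was near the detection limit in WT PF replicate 4. Adh6a had 57.2, 161, 234, 332, 363, 268, 1030 and 1361 CPM, so that only WT PF replicate 2 broke a steady rise. Without fat-1 PF replicates 2 and 4, 3 members of the list passed, and the slopes of Nr1i3 and Adh6a were 1.59 (adjusted p = 0.017) and 1.41 (adjusted p = 0.0167). Cyp2d26 (0.98), Gstm3 (1.36), Cyp2c65 (0.66) and the retinol dehydrogenase gene Rdh7 (1.08) also rose. The transcripts of Gstm3, Cyp2d26 and Rdh7 share 9.78%, 3.34% and 3.75% of their 75-base windows with other genes, so part of their reads could belong to a relative. The efflux pumps Abcg2 (-0.52) and Abcb1a (-0.35) had negative slopes that did not pass the adjustment.

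Among the genes called, the highest slope belonged to Cym, which encodes the milk-clotting protease chymosin. It had 0, 2, 4, 11, 14, 1, 74 and 139 reads in Gata4 order, and its slope of 3.60 ± 0.48 (adjusted p = 0.00487) rests on a gene near the detection limit in most libraries. Afp, the fetal serum protein alpha-fetoprotein, rose from 0.58 to 29.8 CPM (slope 2.32 ± 0.44, adjusted p = 0.0396), a call lost in 6 of the 8 fits with 1 library left out. The adenosine receptor gene Adora2b (2.25), the ectonucleotide pyrophosphatase gene Enpp3 (2.05), Mbl2, a soluble lectin of innate immunity (1.81), Gstm6, a glutathione transferase (1.78), Tsku, a secreted protein (1.76), and Acaa1b, a peroxisomal thiolase (1.70), complete the 12 highest slopes. With 1 library left out, Mbl2 lost its call in 6 of 8 fits, Tsku in 4, and Gstm6 and Acaa1b in 1 each. Without fat-1 PF replicates 2 and 4, Adh4 (2.77, adjusted p = 0.0295) and Enpp3 (2.07, adjusted p = 0.0321) kept their calls, whereas Afp had a slope of 1.19 (adjusted p = 0.592), Cym of 3.04 (adjusted p = 0.464) and Acaa1b of 1.28 (adjusted p = 0.183). Adora2b, Mbl2, Gstm6 and Tsku also lost their calls there, with slopes of 1.97, 2.47, 1.14 and 1.38. Enpp3 had 16.9, 122, 100.3, 199.6, 264, 159, 686 and 693 CPM, and its slope was 2.03 in WT PF mice and 2.04 in fat-1 PF mice. Acaa1b shares 24.4% of its 75-base windows with other genes, and its count is uncertain to that extent. Of the 248 genes that rose, 247 had their lowest value in WT PF replicate 4, and 233 had their 2 highest values in fat-1 PF replicates 2 and 4. Since those libraries have the lowest and the highest Gata4, this follows in large part from the fit.

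Among genes of peptide digestion and amino acid handling, 4 of 21 rose and 0 fell by edgeR's test, with a median slope of 0.08. Without WT PF replicate 4, 3 rose and 5 fell (median -0.05), and DESeq2 called 5 with positive slopes and 1 with a negative slope. With the score of 5 ileal bile acid genes, edgeR called 0 with positive and 5 with negative slopes (3.64% and 3.36% of all genes). With the rank of Gata4 it called 0 in either direction. Ace, a peptidase of the brush border, had 552, 1285, 1036, 1235, 1801, 1131, 2805 and 4412 CPM (slope 1.06 ± 0.18, adjusted p = 0.0216). It was lowest in WT PF replicate 4 and highest in fat-1 PF replicate 2, and its call was lost in 3 of the 8 fits with 1 library left out. The peptidase gene Mme had a slope of 1.00, and the amino acid exchanger gene Slc7a8 one of 0.83. The call for Slc7a8 was lost in 5 of the 8 fits with 1 library left out, and its adjusted p was 0.13 without fat-1 PF replicates 2 and 4. Other peptidases had negative slopes that did not pass, among them Mep1a (-1.27, adjusted p = 0.163), which had 663 to 1379 CPM in 6 libraries and 121 and 190 CPM in replicates 4 and 2 of fat-1 PF. Outside the lists, Dao, a peroxisomal D-amino acid oxidase (slope 1.33 ± 0.13, adjusted p = 0.00128), and Slc25a45, a mitochondrial carrier (1.26 ± 0.12, adjusted p = 0.00128), were singled out after their values were seen. Without fat-1 PF replicate 1, 2 members of the peptide list passed, and without fat-1 PF replicates 2 and 4 together its median slope was 0.12 and the slope of Ace was 0.79 (adjusted p = 0.145).

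The promoters of a few of these genes are shown because GATA factors bind short DNA words and the genes moved with Gata4. Each sequence holds the 250 bases before the RefSeq transcription start (GRCm38.p6), read in the direction of the gene. Capitals mark the letters AGATAA, or the letters AGATAG, or the letters TGATAA, or the letters TGATAG, on either strand. Lct lies on 1:128328319-128328568 (minus strand), Adh6a on 3:138313036-138313285, Rbp2 on 9:98490287-98490536, Nr1i3 on 1:171213720-171213969 and Cldn2, the called gene with the lowest slope, on X:139800558-139800807 (the last 4 on the plus strand).
Lct: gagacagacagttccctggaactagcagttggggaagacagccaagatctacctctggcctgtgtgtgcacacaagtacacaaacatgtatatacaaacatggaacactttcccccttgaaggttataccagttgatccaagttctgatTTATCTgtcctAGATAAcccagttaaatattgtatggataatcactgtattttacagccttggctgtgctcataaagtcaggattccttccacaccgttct
Adh6a: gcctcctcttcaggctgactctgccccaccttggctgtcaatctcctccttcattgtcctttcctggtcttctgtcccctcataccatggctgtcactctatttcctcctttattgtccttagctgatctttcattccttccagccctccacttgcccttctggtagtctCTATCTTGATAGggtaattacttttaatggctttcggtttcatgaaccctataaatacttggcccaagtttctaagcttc
Rbp2: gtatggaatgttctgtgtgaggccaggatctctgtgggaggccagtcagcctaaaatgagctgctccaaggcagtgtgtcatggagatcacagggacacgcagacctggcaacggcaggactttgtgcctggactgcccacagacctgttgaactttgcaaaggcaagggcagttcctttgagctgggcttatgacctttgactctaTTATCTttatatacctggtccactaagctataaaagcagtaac
Nr1i3: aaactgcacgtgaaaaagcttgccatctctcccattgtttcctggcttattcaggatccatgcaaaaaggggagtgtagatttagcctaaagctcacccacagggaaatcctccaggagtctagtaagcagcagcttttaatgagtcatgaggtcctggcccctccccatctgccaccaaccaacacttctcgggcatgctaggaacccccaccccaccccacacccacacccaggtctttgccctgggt
Cldn2: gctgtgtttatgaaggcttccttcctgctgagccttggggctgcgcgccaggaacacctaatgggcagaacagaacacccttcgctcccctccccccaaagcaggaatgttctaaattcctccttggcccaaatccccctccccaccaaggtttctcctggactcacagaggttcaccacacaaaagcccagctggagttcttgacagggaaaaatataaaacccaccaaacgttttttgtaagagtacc
The words began 101 and 90 bases before the start in Lct, 80 in Adh6a, where 2 of them adjoin, and 43 in Rbp2. Nr1i3 and Cldn2 held none in these windows. Of the 209 genes that rose and had a RefSeq promoter, 25.8% held at least 1 of the words, and of the 22 genes that fell, 0 did. The share was 17.6% among the 10191 tested genes with a promoter and 27.1% among all 27025 promoters of this length. A match is a string of letters only, and no binding was measured.

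Fewer genes fell with Gata4 than rose in the main fit. In fat-1 PF mice alone the shares were closer, with 2.89% falling and 3.36% rising. Cldn2 (claudin 2, which forms cation pores in tight junctions) had 286, 146, 162, 185, 121, 99.9, 78.8 and 38.4 CPM in Gata4 order, a slope of -1.01 ± 0.19 (adjusted p = 0.0361). It was highest in the library with the least Gata4 and lowest in the library with the most. Slc13a1, a sulfate carrier, had 786, 754, 479, 394, 406, 329, 158 and 159 CPM and a slope of -0.91 ± 0.17 (adjusted p = 0.0254), a course almost without a break. Plscr1, a phospholipid scramblase that interferons induce, had 177, 123, 169, 138, 87.7, 78.4, 69.3 and 87.0 CPM and a slope of -0.71 ± 0.09 (adjusted p = 0.00344). Of these, Plscr1 kept its call when any 1 library was left out, whereas Cldn2 lost it in 5 of 8 such fits and Slc13a1 in 6 of 8. Over the 6 libraries without fat-1 PF replicates 2 and 4, Cldn2 had a slope of -0.75 (adjusted p = 0.0469), Plscr1 of -0.64 (adjusted p = 0.0406) and Slc13a1 of -0.66 (adjusted p = 0.219). Other members of the lowest 12 were Gcnt1, a glycosyltransferase of mucin-type glycans (-0.81), Slc30a1, a zinc exporter (-0.73), Plat, the tissue plasminogen activator (-0.81), Abi3bp (-0.89), Pdp1, a phosphatase of pyruvate dehydrogenase (-0.69), Atp2b1, a calcium pump of the basolateral membrane (-0.66), and Cables1 (-0.64). With 1 library left out, the call was lost in 6 of 8 fits for Gcnt1, Slc30a1, Plat, Pdp1 and Cables1, in 5 for Atp2b1 and in 4 for Abi3bp. All 7 lost it without fat-1 PF replicates 2 and 4, with slopes that stayed below 0.

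Of 15 genes of cholesterol synthesis and uptake, 1 fell, Hmgcs1, the synthase at the start of the pathway, and 11 had negative slopes at an unadjusted p under 0.05. The median slope was -0.51. Hmgcs1 had 609, 452, 423, 490, 366, 310.3, 243 and 167 CPM (slope -0.69 ± 0.14, adjusted p = 0.0319). Srebf2, the master regulator of the pathway (-0.40), was among those with negative slopes that passed only before adjustment. Hmgcs1 lost its call in 6 of the 8 fits with 1 library left out, and without fat-1 PF replicates 2 and 4 its slope was -0.46 (adjusted p = 0.193) and the median of the list -0.33. DESeq2 called 7 of the 15, all with negative slopes.

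The bile acid genes of the ileum had a median slope of -0.85, but 1 of the 12 tested of 13 listed was called by edgeR's test. DESeq2 called 6 with negative slopes and 1 with a positive slope, limma voom 2 with negative slopes, and edgeR without WT PF replicate 4 called 4 with negative slopes and 1 with a positive slope. The median was -0.54 without fat-1 PF replicate 3 and -1.44 without WT PF replicate 4. Slc51b, a subunit of the basolateral bile acid exporter, had 363, 282, 370, 204, 197, 236, 130.0 and 101.7 CPM (slope -0.75 ± 0.16, adjusted p = 0.0447), and its call was lost in 6 of 8 fits that left out 1 library. Slc10a2 had 1177, 820.4, 613, 630.4, 459, 433, 3.19 and 6.80 CPM, a slope of -2.76 ± 1.43 (adjusted p = 0.399). Fabp6 had 3434, 2705, 3532, 1757, 774, 1257, 2.97 and 23.4 CPM (slope -3.56 ± 1.72, adjusted p = 0.369). Fabp6 was highest in the 3 libraries with the least Gata4 and lower in the next 3, and Slc10a2 was highest in the 2 libraries with the least. Both genes were close to absent in the last 2 libraries, and their standard errors over 8 libraries were wide. Over the 6 libraries without fat-1 PF replicates 2 and 4, the slope of Slc10a2 was -0.79 (adjusted p = 0.0585) and that of Slc51b -0.49 (adjusted p = 0.312), and the median of the list was -0.47. Slc51a, the other subunit of the exporter, had 740.0 to 1304 CPM in 6 libraries and 227 and 282 CPM in the 2. Nr1h4, the bile acid receptor FXR, had 110 to 202 CPM in the 6 and 31.5 and 27.1 CPM in the 2. Fgf15, the hormone that signals bile acid return to the liver, had another course: 19.6, 58.8, 68.0, 0.68, 3.10, 1.76, 0 and 0.13 CPM, so that it was above 10 CPM only in the 3 libraries with the least Gata4. The vitamin B12 genes Cubn (slope -0.48), Amn (-0.10) and Tcn2 (-0.01) did not pass. Abcc3, an efflux pump, was the only member with a positive slope (0.56, adjusted p = 0.0741).

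A difference between the slopes of the genotypes was tested through the product of genotype and Gata4. By edgeR's test 125 genes had the lower slope in the fat-1 PF group (0.969% of those tested) and 44 a higher one (0.341%), and 1711 differed at an unadjusted p under 0.05. Only 5 of these 169 genes were also called for the common slope. The 2 libraries with the most Gata4 were both fat-1 PF and the one with the least was WT PF, so a difference of genotypes cannot be told apart from a bend in the course along Gata4. Without WT PF replicate 4, 7 genes passed. The count was 51 without fat-1 PF replicate 4, 85 without WT PF replicate 2, 94 without WT PF replicate 1, 105 without fat-1 PF replicate 2 and 29 without both fat-1 PF replicates 2 and 4.

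Several of these genes are known from the distal gut. Slc34a2, a phosphate carrier of the ileum, had 467, 322, 497, 195, 336, 437, 16.5 and 15.99 CPM in Gata4 order: its slope was -0.15 in WT PF and -3.75 in fat-1 PF mice, a difference of -3.61 (adjusted p = 0.000103). Pyy, a hormone of distal enteroendocrine cells, had 17.6 to 33.5 CPM in 6 libraries and 1.21 and 1.64 CPM in replicates 4 and 2 of fat-1 PF (difference -3.25, adjusted p = 0.000502). The neurotensin gene Nts had 98.9 to 201 CPM in the 6 and 40.5 and 49.6 CPM in the 2 (difference -1.33, adjusted p = 0.0211). Hoxb9, a homeobox gene of the posterior body, had 7.17 to 24.3 CPM in the 6 and 0.22 and 0.25 CPM in the 2 (difference -3.61, adjusted p = 0.0237). Mgat4c, a glycosyltransferase, and Tmigd1, an adhesion protein of the brush border, named after their values were seen, had 291 to 478 and 581 to 1164 CPM in the 6, against 13.2 and 13.6 and 46.9 and 25.7 CPM in the 2. The opposite course was that of Adh1, an alcohol dehydrogenase, with 26.8 to 179 CPM in the 6 and 861 and 1287 CPM in the 2 (difference 1.55, adjusted p = 0.036), and of Cck, a hormone of proximal enteroendocrine cells, with 4.04 to 10.1 CPM in the 6 and 40.2 and 31.3 CPM in the 2 (difference 1.30, adjusted p = 0.0494).

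Paneth cell genes had a like course. None of the 11 was called for the common slope by edgeR's test (0 also before adjustment and by DESeq2), and in 8 the slope of the fat-1 PF group was the lower one by the test of the difference. Without WT PF replicate 4, 5 of them were called for the common slope, all with slopes below 0. With the score of 5 ileal bile acid genes in place of Gata4, 8 of the 11 were called, all with slopes below 0, as were 3.36% of all genes. Their summed level was 21120 to 28270 CPM in WT PF mice and 6142 to 24660 CPM in fat-1 PF mice. Lyz1, the Paneth cell lysozyme, had 7091 to 11170 CPM in 6 libraries and 2716 and 1897 CPM in replicates 4 and 2 of fat-1 PF (difference -1.70, adjusted p = 0.00707), and Ang4, an antimicrobial ribonuclease, had 451 to 708 CPM against 153 and 130 CPM (difference -1.71, adjusted p = 0.00167). The defensin genes Defa21 and Defa22 had 1243 to 1964 and 1207 to 1854 CPM against 48.8 to 69.1 CPM, but they share 56.4% and 56.2% of their 75-base windows with relatives, so their reads may come from other defensins. Over the 6 libraries without fat-1 PF replicates 2 and 4 the median slope of the list was 0.08. The goblet cell genes had a summed level of 10810 to 12980 CPM in the WT PF group and 9596 to 14440 CPM in the fat-1 PF group, and 0 of 8 were called for the common slope by edgeR's test (2 at an unadjusted p under 0.05, both with negative slopes, and 1 by DESeq2). By the test of the difference 1 of the 8 had the lower slope in fat-1 PF mice, Clca1, a secreted product of goblet cells (difference -0.94, adjusted p = 0.0257). In the fit of fat-1 PF mice alone, 3 of the 8 goblet cell genes (median slope -0.44) and 9 of the 11 Paneth cell genes (median -1.21) were called, all with slopes below 0, as were 2.89% of all genes. Whether the lists differ from each other was not tested.

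**Figure D4:**
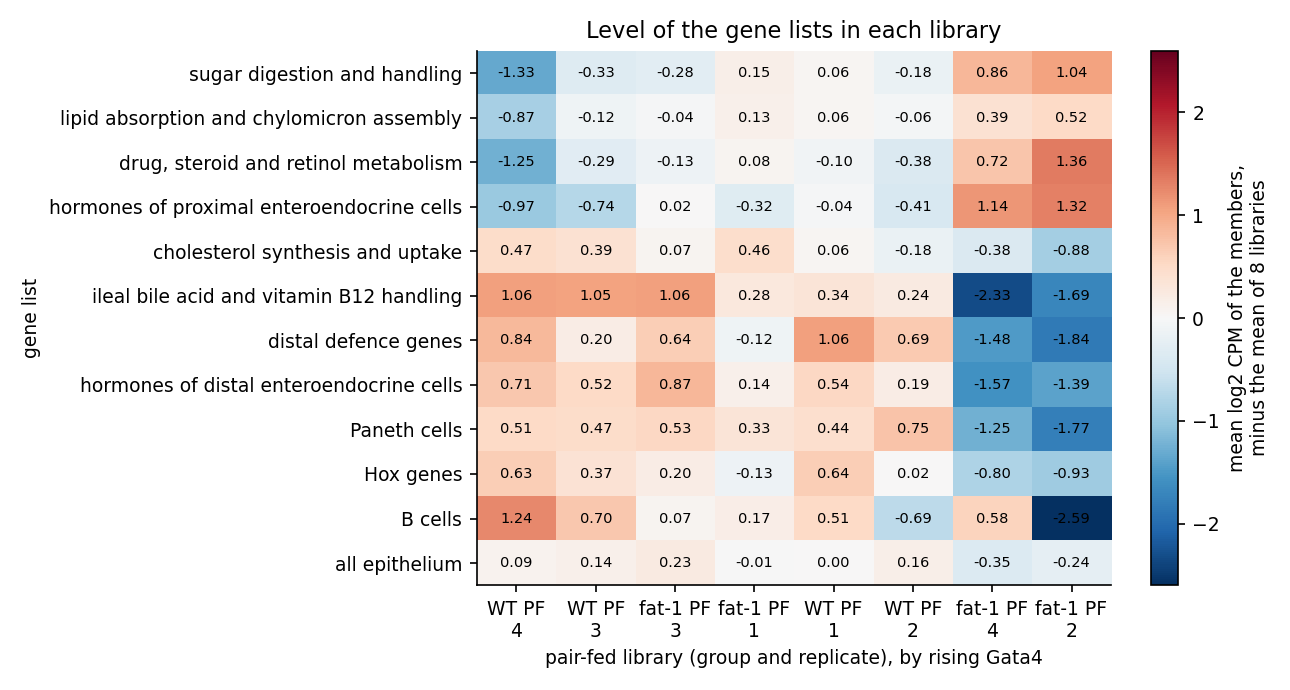
Mean log2 CPM of the tested members of 12 gene lists in each PF library, minus the mean over the 8 libraries, with libraries ordered by Gata4 (red above, blue below the mean). Sugar genes run from -1.33 to 1.04 along the order, whereas Paneth cell genes lie between 0.33 and 0.75 in 6 libraries and at -1.25 and -1.77 in fat-1 PF replicates 4 and 2.

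Defence genes of the distal gut did not move one way. Of 18 tested of 20 listed, 2 rose with Gata4 and 0 fell: Pigr, which carries IgA across the epithelium (slope 0.51 ± 0.11, adjusted p = 0.0417), and the cytokine gene Il18 (0.52 ± 0.10, adjusted p = 0.0227). Neither passed without WT PF replicate 1, WT PF replicate 2 or fat-1 PF replicate 2. In fat-1 PF mice alone 0 were called with positive and 10 with negative slopes (2.89% of all genes had such a call), without WT PF replicate 4 there was 1 of each, and with the ileal score 1 positive and 3 negative. Of the 18, 14 had a slope below 0, with a median of -0.48, which was -0.01 in WT PF mice alone and -2.28 in fat-1 PF mice alone. The median was -0.99 without WT PF replicate 1, -1.27 without WT PF replicate 4 and -0.03 without fat-1 PF replicates 2 and 4. Duoxa2, the maturation factor of a hydrogen peroxide producing oxidase, had 60.6 to 142 CPM in 6 libraries and 10.6 and 2.39 CPM in replicates 4 and 2 of fat-1 PF (slope -1.46, adjusted p = 0.413). Gsdmc2 and Gsdmc3, gasdermins that share 39.3% and 35.9% of their windows with relatives, had lower slopes in fat-1 PF mice (differences -2.42 and -3.17, adjusted p = 0.00167 and 0.00258). Slc6a14, an amino acid carrier, stood out in 1 library only, with 127 CPM in WT PF replicate 1 and 0.63 to 17.1 CPM in the other 7. Car1, a carbonic anhydrase of the large intestine, was high in the same library, 53.6 CPM, with 12.2 CPM in fat-1 PF replicate 4 and 0 to 2.21 CPM elsewhere. None of the 7 tested large intestine genes was called for the common slope by edgeR's test, 0 also before adjustment and by DESeq2.

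Among the 22 tested regional transcription factors, 1 rose, Creb3l3, with 227, 400, 473, 428, 509, 508, 830.1 and 1061 CPM (slope 0.75 ± 0.10, adjusted p = 0.0049), and 0 fell by edgeR's test. DESeq2 called 3 with positive and 2 with negative slopes, and without WT PF replicate 4 edgeR called 1 with a positive slope and 3 with negative slopes. With the ileal score edgeR called 2 with positive and 4 with negative slopes. Without fat-1 PF replicates 2 and 4 the slope of Creb3l3 was 0.63 (adjusted p = 0.0762). Onecut2, a factor of the duodenum and liver, had the steepest slope of the list, 2.98 ± 0.61, but missed the threshold (adjusted p = 0.0683). It had 0.29, 0.41, 1.24, 9.99, 2.70, 0.52, 67.1 and 40.9 CPM, so that it was at or under 1.24 CPM in 4 libraries and high in fat-1 PF replicates 4 and 2. The related factors Gata6 (slope 0.31, adjusted p = 0.202) and Gata5 (-0.08, adjusted p = 0.81) had 62.4 to 131 and 106.7 to 174 CPM. The hindgut factors Cdx1 and Cdx2 had slopes of -0.19 and -0.06, and the enterocyte factors Hnf4a and Hnf4g slopes of -0.16 and 0.30, none of them called. Pdx1, of the duodenum, did not pass the filter, with at most 1.43 CPM. Of 39 Hox genes, 16 passed the filter, 0 were called by edgeR's test or by DESeq2 and 4 had a negative slope at an unadjusted p under 0.05. With negative slopes, edgeR called 5 in fat-1 PF mice alone, 4 with the ileal score, 2 without the genotype term and 1 without WT PF replicate 4. Their summed level was 55.9 to 97.0 CPM in WT PF and 24.7 to 60.4 CPM in fat-1 PF mice.

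Gip, the incretin of proximal K cells, rose from 7.59 CPM to 102 and 150 CPM, with 19.0 to 37.8 CPM in the 5 middle libraries (slope 1.41 ± 0.24, adjusted p = 0.0311). It was the 1 member called by edgeR's test among 5 tested of 6 proximal hormone genes, whose median slope was 1.06. DESeq2, limma voom and edgeR without WT PF replicate 4 each called 3 of the 5, all with positive slopes. Cck (1.16, adjusted p = 0.0635) and the ghrelin gene Ghrl (1.06, adjusted p = 0.0868) had similar slopes and missed the threshold, and the secretin gene Sct (-0.13) and the somatostatin gene Sst (0.32) did not pass either. The call for Gip was lost in 5 of the 8 fits with 1 library left out, and without fat-1 PF replicates 2 and 4 its slope was 1.05 (adjusted p = 0.19). Among the 3 tested distal hormone genes, Pyy, Nts and Gcg (slope -0.23), 0 were called for the common slope by edgeR's test or by DESeq2, 2 of them having negative slopes at an unadjusted p under 0.05. With negative slopes, edgeR called 1 of the 3 without WT PF replicate 4, 2 in fat-1 PF mice alone and 2 with the ileal score. The 6 tested general markers of enteroendocrine cells had slopes between 0.04 and 0.51, and 0 were called by edgeR's test (3 at an unadjusted p under 0.05, 2 by DESeq2).

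**Figure D5:**
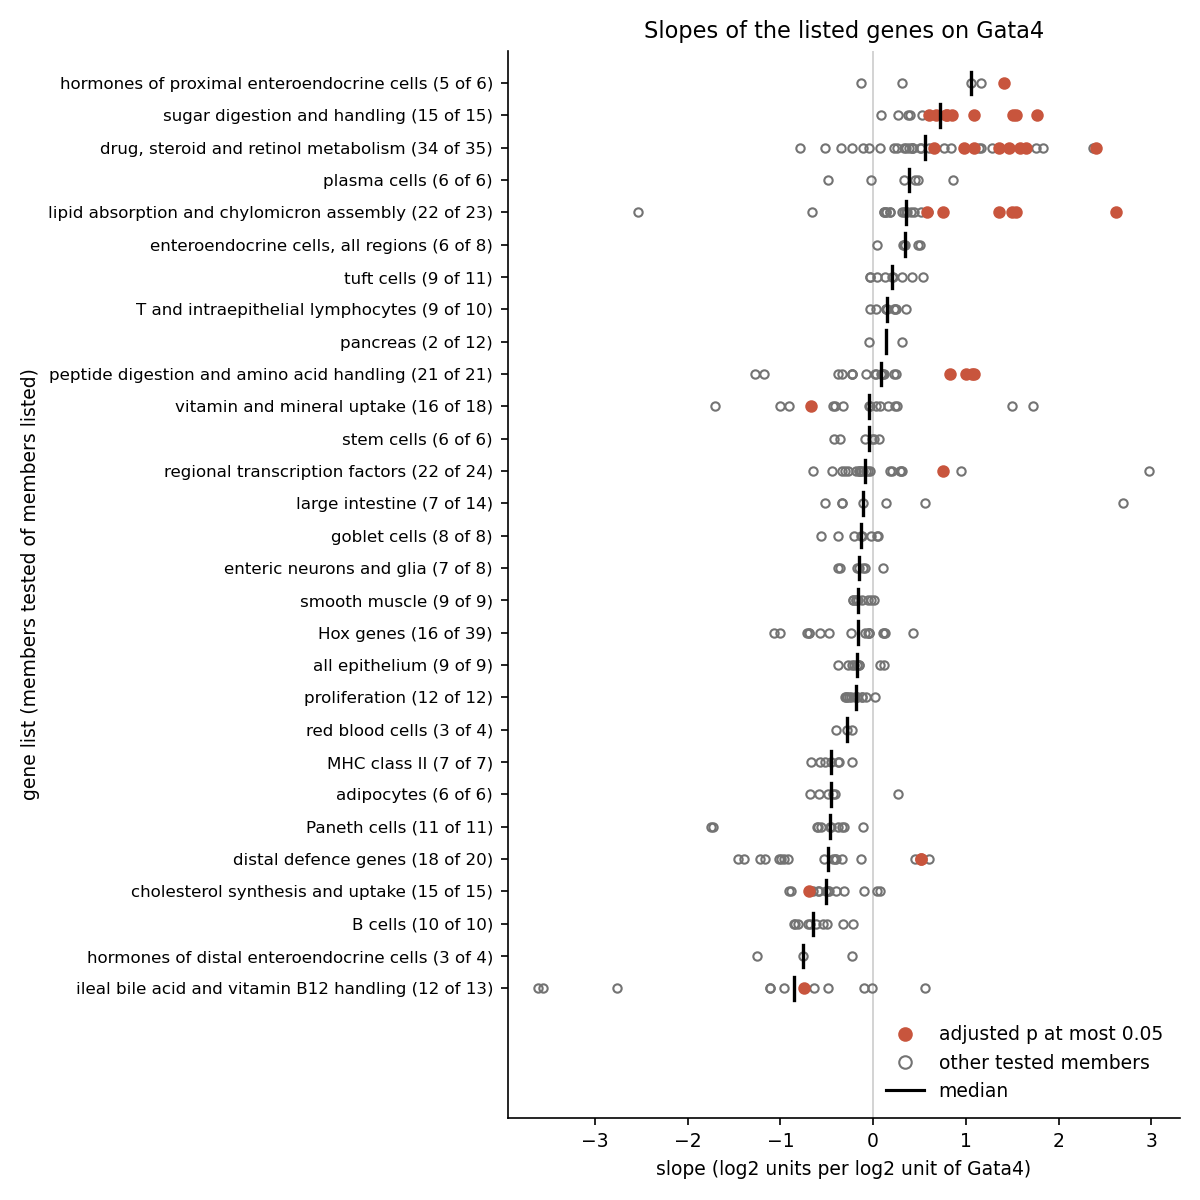
Slope of every tested member of each gene list on Gata4 over the 8 PF libraries, with filled points for an adjusted p of at most 0.05 and bars for the median. The medians run from 1.06 for proximal hormones and 0.72 for sugar genes to -0.85 for ileal bile acid genes.

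Uptake of vitamins and minerals showed no common direction. Of 16 tested of 18 listed genes, 1 fell, Atp2b1, and 0 rose by edgeR's test (2 had positive slopes at an unadjusted p under 0.05, and DESeq2 called 2). Without WT PF replicate 4, 2 rose and 2 fell. The folate carrier gene Slc46a1 (slope 1.497) and the vitamin C carrier gene Slc23a1 (1.73, adjusted p = 0.108) had positive slopes that passed only before adjustment. Slc23a1 had 3.46 CPM in WT PF replicate 4, 42.8 to 97.4 CPM in the 5 middle libraries and 141 and 136 CPM at the top, so that its widest step lay between the first and the second library. The riboflavin carrier gene Slc52a3 had 238 to 380 CPM in 6 libraries and 55.6 and 61.4 CPM in replicates 4 and 2 of fat-1 PF (difference of slopes -1.93, adjusted p = 0.00165).

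Other cell types and neighbouring tissues could enter a piece of gut wall in unequal amounts, so their markers were read in the same fit. For stem cells, proliferation, all epithelium, B cells, plasma cells, T and intraepithelial lymphocytes, MHC class II, smooth muscle, enteric neurons and glia, adipocytes, red blood cells, tuft cells and the pancreas, edgeR's test called 0 members for the common slope. At an unadjusted p under 0.05, 0 to 2 members of each of these lists had a slope, and DESeq2 called 0 or 1 of each. Without WT PF replicate 4, 3 of the 9 general epithelial genes were called, all with slopes below 0, together with 2 of 9 tuft cell genes and 1 of 6 adipocyte genes with slopes above 0 and 1 of 6 plasma cell genes with a slope below 0. The median slope of the adipocyte genes was -0.46 over all 8 libraries and 0.48 without WT PF replicate 4. In each of the fits of WT PF mice alone, without fat-1 PF replicate 3, and without fat-1 PF replicates 2 and 4, 1 adipocyte gene was called with a slope below 0. The general epithelial genes had a summed level of 15570 to 17710 CPM in WT PF and 12700 to 17780 CPM in fat-1 PF mice, and smooth muscle genes 1416 to 1875 and 1246 to 1684 CPM. The B-cell genes varied widely: all 10 had slopes below 0 (median -0.64, which was -1.01 without fat-1 PF replicate 4 and -0.1 with the replicate number as a block), and their summed level ran from 37.1 to 126 CPM in WT PF and from 8.81 to 84.7 CPM in fat-1 PF mice. They were lowest in fat-1 PF replicate 2, where Ms4a1, which encodes the B-cell antigen CD20, had 0.50 CPM against 2.59 to 19.8 CPM in the other 7 libraries. The 7 MHC class II genes also had slopes below 0 (median -0.45), with a summed level of 2912 to 3893 CPM in the WT PF group and 1283 to 4779 CPM in the fat-1 PF group. That median was -0.06 without fat-1 PF replicate 3 and -0.09 in WT PF mice alone. H2-Aa, a class II chain, had 957 CPM in fat-1 PF replicate 3 against 205 to 240 CPM in the other fat-1 PF libraries. Their part in the slopes of other genes was not tested. None of the 11 stomach and Brunner gland genes passed the filter, and their summed level was at most 21.4 CPM. Of 12 pancreas genes 2 passed, Clps and Cela1, with slopes of -0.04 and 0.31.

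The genotypes were then compared at equal Gata4. By edgeR's test 0 of 12898 genes differed (0%), with a smallest adjusted p of 0.907. At an unadjusted p under 0.05, 670 genes differed, and DESeq2 and limma voom also called 0. Without the Gata4 term 0 genes passed as well (0%), with a smallest adjusted p of 0.287, while 1844 differed at an unadjusted p under 0.05, with the fat-1 PF mean above the WT PF mean in 1151. Of these 1844 genes, 570 were also among the 670. The median size of the genotype difference was 0.17 on the log2 scale without the Gata4 term and 0.13 with it. DESeq2 called 99 genes without the Gata4 term, 71 higher and 28 lower in fat-1 PF mice, and limma voom called 0. Without fat-1 PF replicate 3, edgeR called 3 genes at equal Gata4 and 10 without the term. Since the WT PF mice lay lower and the fat-1 PF mice higher on Gata4, a genotype effect that follows this order cannot be told apart from the gradient.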

How the data were processed

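The authors aligned reads of poly(A)-selected, stranded libraries to mm10 with tophat2, guided by Ensembl transcripts, and deposited raw counts of reads per gene, whose counting settings, the use of strand among them, are not given in the sources used here. Of 21965 genes, 26 had no entry in GENCODE M21, the source of names and positions.

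All fits used the 8 PF libraries (edgeR 4.0.16 in R 4.3.3): filterByExpr on genotype, TMM scaling, and a robust quasi-likelihood fit of each gene on genotype and the log2 CPM of Gata4 (prior count 2), with Benjamini-Hochberg adjustment at 0.05. Gata4 itself was left out of the calls. Differences of slopes came from the product of genotype and Gata4. Each standard error given is the size of the slope divided by the square root of the F statistic of edgeR's test. Tables and figures were made with Python 3.11.15 and matplotlib 3.10.9.

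The libraries, the marker, the 30 gene lists and the tests were chosen with earlier results of these data known. Named are 12 genes from the top and 12 from the bottom of the slopes of genes called, of the same sign in both genotypes and with a mean of at least 1 CPM. Also named are both ends of every list, and all members of the lists of bile acid genes, regional factors and proximal and distal hormones. All other genes named were chosen after their values were seen.

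Depth was 8422645 to 10064410 counts per library, so that 3 counts were 0.298 to 0.356 CPM. The fit was tested on simulated data of the slope over 8 libraries with 12898 genes: it called 87 of 96 genes with a slope of 1 in size, 101 of 104 with a slope of 2, and 15 of 12698 without one.

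Alternatives were DESeq2 size factors or upper-quartile scaling, limma voom (limma 3.58.1), DESeq2 1.42.0 with its Wald test, a looser and a stricter filter, no genotype term, the rank of Gata4 or a score of other region genes in its place, a replicate block, each genotype alone, and each library left out. Leaving out fat-1 PF replicates 2 and 4 together was added after seeing the data. The 8 EtOH libraries entered no fit. Some genes that the rule names are not reported here.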

Additional observations from a re-analysis of the deposited data

Results flagged for a closer look

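Of the 151 genes looked at, 112 were named by rule and 39 were chosen after their values were seen. Among them, 10 had a library that stood far from the other 3 of its group, out of 302 groups of 4 that were looked at (3.31%). The values of 9 of them are given. Chance alone marks about 1 in 20 groups. The value given is the gap to the nearest library as a share of the range of the group. WT PF replicate 4, the library with the least Gata4, stood low for Tsku (0.934), Rdh7 (0.89) and Esrra, a nuclear receptor of energy metabolism (0.86). It stood high for Retn, which encodes resistin, a hormone of mouse adipocytes (0.948), and Maf, a transcription factor (0.887). WT PF replicate 2 stood low for Gcg, the proglucagon gene (0.946), and Gsdmc3 (0.899). In fat-1 PF mice, replicate 2 stood low for Ms4a1 (0.949) and replicate 3 high for the MHC class II gene H2-Aa (0.897). Retn had 18.9 CPM in WT PF replicate 4 and 4.17 to 7.30 CPM in the other 7 libraries, and H2-Aa had 957 CPM in fat-1 PF replicate 3 and 205 to 240 CPM in the other 3 fat-1 PF libraries.

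The slope on Gata4 differed between the genotypes for 26 of these 151 genes by edgeR's quasi-likelihood test, 22 with the lower and 4 with the higher slope in fat-1 PF mice. Of the 26, 13 were chosen after their values were seen, so this number and its split are a description. Over all 12898 genes tested, 125 (0.969%) had the lower and 44 (0.341%) the higher slope in fat-1 PF mice. The antimicrobial and Paneth cell genes differed by -4.04 (Defa22), -4.03 (Defa21), -1.71 (Ang4) and -1.70 (Lyz1). Carriers and enzymes differed by -3.61 (Slc34a2), -3.22 (Slc5a8), -1.93 (Slc52a3), -1.87 (Slc1a1), -1.63 (Mep1a), -1.45 (Car4) and -1.32 (Slc51a). The Hox genes differed by -3.61 (Hoxb9) and -3.40 (Hoxc8), and the hormone genes by -3.25 (Pyy) and -1.33 (Nts). The remaining differences below 0 were those of Mgat4c (-3.96), ccdc198 (-3.58), Tmigd1 (-3.53), Gsdmc3 (-3.17), Gsdmc2 (-2.42), the bile acid receptor gene Nr1h4 (-1.51) and the goblet cell gene Clca1 (-0.94). The differences above 0 were 1.65 for Retn, 1.55 for Adh1, 1.33 for Gstm6 and 1.30 for Cck. Genotype and a bend in the course along Gata4 cannot be told apart for these genes.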

How the results depend on the processing

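The count of 279 genes whose level changed with Gata4 across pair-fed libraries stayed within 1.5 times under DESeq2 size factors, upper-quartile scaling, limma voom, both filters, a score of sugar and lipid genes in place of Gata4, and WT PF mice alone. The genes were not all the same: 139 of the 279 were also called in WT PF mice alone. With the sugar and lipid score, 183 of the 264 tested there were. That score is built from lists with members that rose with Gata4, so it is no independent check. It was 765 by DESeq2, of which 575 rose and 190 fell (75.2% rising, against 88.9%), 1378 without the genotype term, 144 with the rank of Gata4, 902 with a score of 5 ileal bile acid genes (52.0% on the rising side), 807 in fat-1 PF mice alone and 38 without fat-1 PF replicates 2 and 4. With 1 library left out it ran from 106 to 642. Of the 279 genes, those tested kept their sign under every alternative run. Each alternative used libraries that had picked these genes, so the kept signs are a description only. The cause of these changes was not tested.

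The genotype difference stood at 0 genes and at 0 to 3 with 1 library left out. Without the Gata4 term it was 0, and 99 by DESeq2, and ran from 0 to 10 with 1 library left out. The difference of slopes, 169 genes, was 321 by DESeq2, 72 with the rank of Gata4, 112 with the sugar and lipid score, 0 by edgeR with the ileal score (358 at an unadjusted p under 0.05), 29 without fat-1 PF replicates 2 and 4, and 7 to 222 with 1 library left out.

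The labels tie no replicate number to a shared litter or day, and the numbers did not mark mice that deviated together: same-numbered libraries of the 2 genotypes had a mean correlation of deviations of -0.06 (-0.25 to 0.21, 4 pairs), against 0.02 for the 12 other pairs. With a replicate block the slope count was 134 and the difference of slopes 17. A level of 3 reads was 0.298 to 0.356 CPM, which limits rare genes such as Cym.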
